A study of Mus musculus with 4 samples.

Results

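The genes examined were the matrix metalloproteinases (Mmp), the ADAM, ADAMTS and ADAMTS-like (Adam, Adamts, Adamtsl) genes and the tissue inhibitors of metalloproteinases (Timp) of the mouse. They were chosen by symbol alone. Every symbol of these families followed by a number was taken where a probe set carried that symbol only, and each gene was read from its probe set with the highest mean. This gave 83 genes of the 19938 measured, of which 22 were Mmp, 34 Adam, 18 Adamts, 5 Adamtsl and 4 Timp genes. The cells were cultures from C57BL/6 mice, hybridised on 1 Affymetrix gene array per culture. The cultures were bone marrow mesenchymal stem cells (MSC) grown with basic fibroblast growth factor (bFGF) at 1 ng/ml, MSC grown without bFGF, osteoblasts released by enzymes from newborn calvariae (the bones of the skull vault), and embryonic stem cells. The MSC were flushed from femurs and tibiae and kept as plastic-adherent cells in serum, so any adherent marrow cell could stay in the dish, and the osteoblasts were the pooled cells of the last digestions. No growth conditions of the embryonic stem cells are given in the sources used here.

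Metalloproteinases of these families share a zinc-dependent catalytic centre. MMPs are made as inactive precursors and cut collagens, gelatin, proteoglycans and other proteins of the matrix. Many ADAMs sit in the cell membrane and release the outer parts of growth factors, cytokines and receptors, although part of the family has no protease activity and a large part is made in the testis. ADAMTS enzymes are secreted and cut proteoglycans such as aggrecan and versican or trim procollagens, ADAMTS-like proteins lack the protease domain, and TIMPs bind to the active site and block it. In bone these enzymes are known for the release of matrix by osteoblast lineage cells, osteoclasts and invading vessels.

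Values are log2 RMA levels, so a difference of 1 is 2-fold. A level was counted as above the floor when it exceeded the median level of all single-symbol probe sets on the same array, which was 6.32 in MSC with bFGF, 6.29 in MSC without bFGF, 6.46 in osteoblasts and 6.46 in embryonic stem cells. A difference was counted at 2-fold only if the level in the higher array was above its floor. With 1 array per culture there was no replicate check, no SD between cultures and no test, and every count below describes these 4 arrays. Over 486 genes with several probe sets above the floor in all 4 arrays, these differed with an SD of 0.14 to 0.23. That SD is of differences between arrays and does not cover levels under the floor. Of 1190 olfactory and vomeronasal receptor genes, 95% had differences of -0.97 to 0.67 in MSC with minus MSC without bFGF. In the other comparisons these limits lay within -0.87 to 1.09. Of 20 macrophage markers 17 lay above the floor in MSC with bFGF, 12 in MSC without, 19 in osteoblasts and 16 in embryonic stem cells, with median levels of 9.70, 6.70, 11.24 and 7.44. Of 7 measured osteoblast markers 2 lay above the floor in the osteoblast array, and the defining markers Sp7, Ibsp and Alpl stood under it at 5.36, 4.53 and 6.03. Embryonic stem cell markers lay above the floor for 8 of 11 genes in that array, which also had all 8 fibroblast markers of feeder layers above it, with a median level of 8.73.

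Of the 83 genes 40 lay above the floor in at least 1 array, or 48.2%, against 58.6% of all genes. These were 12 of 22 Mmp, 10 of 34 Adam, 11 of 18 Adamts, 4 of 5 Adamtsl and 3 of 4 Timp genes, and 23 of the 40 lay above the floor in all 4 arrays. Osteoblasts held the highest level for 23 of the 40, or 57.5%, against 27.5% of all genes above the floor. Embryonic stem cells held it for 10, or 25%, against 27.0%. MSC without bFGF held it for 6, or 15%, against 26.5%, and MSC with bFGF for 1, Mmp12, or 2.5%, against 19.0%. The median range over the 4 arrays was 1.75 for the 40 genes and 0.84 for all genes above the floor.

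**Figure D1:**
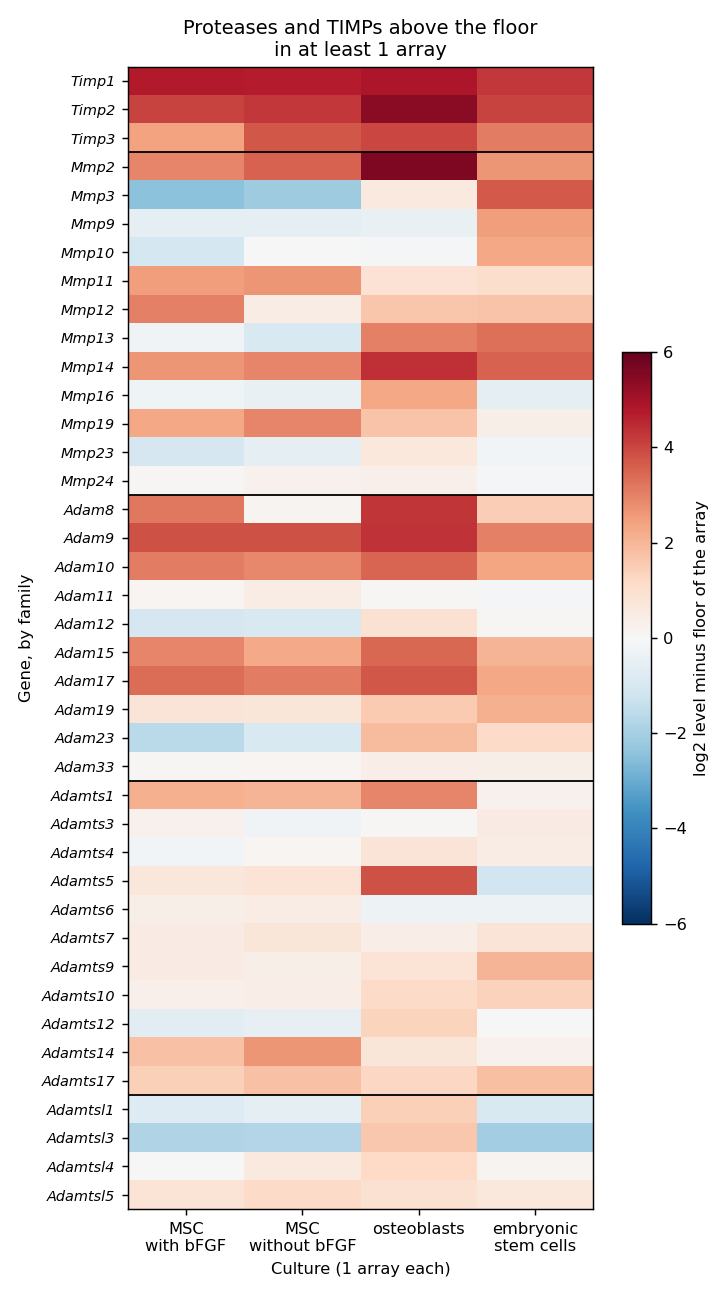
Colour gives the log2 level minus the floor of its array (red above, blue under) for the 40 genes above the floor in at least 1 array, in rows by family, and columns are the 4 cultures with 1 array each. The osteoblast column holds the highest level for 23 of the 40 genes.

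The other 43 genes were under the floor in all 4 arrays, with levels of 2.22 to 6.40. Among them were 24 of the 34 Adam genes, including Adam2, Adam3 and Adam5 of sperm, and the fertilin alpha genes Adam1a and Adam1b. They also included the collagenases Mmp1a, Mmp1b and Mmp8, matrilysin (Mmp7), the enamel protease Mmp20 and Adamts13, which cuts von Willebrand factor. Closely related pairs such as Mmp1a and Mmp1b, Adam26a and Adam26b, or Adam6a and Adam6b share sequence, so their probe sets could read the same transcripts. The rest were Adam4, Adam6a, Adam6b, Adam7, Adam18, Adam20, Adam21, Adam24, Adam25, Adam26a, Adam26b, Adam28, Adam29, Adam30, Adam32, Adam34, Adam34l, Adam39, Adamts8, Adamts15, Adamts16, Adamts18, Adamts19, Adamts20, Adamtsl2, Mmp17, Mmp21, Mmp25, Mmp27, Mmp28, Timp4 and Adam22. Adam22, which has no protease activity, came closest to a pattern in this group, at 4.35 in MSC with bFGF, 4.66 in MSC without, 6.26 in osteoblasts and 4.61 in embryonic stem cells.

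Of the inhibitors 3 had signal in every culture, and their patterns differed. Timp1, the inducible inhibitor, stood at 11.06 in MSC with bFGF, 11.01 in MSC without, 11.31 in osteoblasts and 10.72 in embryonic stem cells. Timp2, which also helps MMP14 to activate pro-MMP2, stood at 10.38, 10.54, 11.86 and 10.50 in the same order. Timp3, the inhibitor that binds to the matrix and blocks ADAM17 and aggrecanases as well as MMPs, stood at 8.74, 10.03, 10.47 and 9.53. Timp1 thus varied by 0.59 at most, Timp2 was set apart by a high osteoblast level, and Timp3 by a low level in MSC with bFGF. Timp4 was under the floor throughout, with levels of 4.96, 4.93, 4.78 and 5.16.

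**Figure D2:**
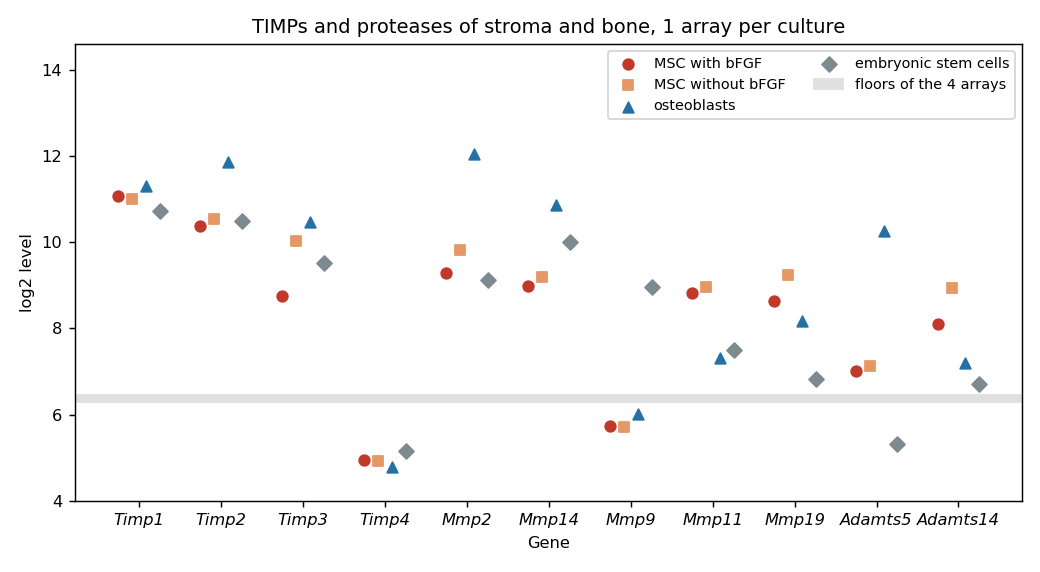
Log2 levels (vertical axis) of the 4 Timp genes and of 7 proteases in the 4 cultures, with 1 point per array and the grey band spanning the floors of the 4 arrays. Timp3 is lowest in MSC with bFGF at 8.74, Mmp2 is highest in osteoblasts at 12.05, and Mmp9 is above the floor in embryonic stem cells only.

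The gelatinases were unlike each other. Mmp2, the gelatinase of fibroblasts and other stromal cells, stood at 9.27 in MSC with bFGF, 9.83 in MSC without, 12.05 in osteoblasts and 9.13 in embryonic stem cells. Mmp9, the gelatinase of leukocytes and osteoclasts, stood at 5.74, 5.72, 6.01 and 8.95. Mmp2 was therefore far above the floor in every culture and highest in osteoblasts, whereas Mmp9 had signal in the embryonic stem cell array alone. Neutrophil markers, which could come with Mmp9, lay above the floor for 1 of 12 genes in embryonic stem cells and in each MSC culture, and for 0 in osteoblasts. Osteoclast markers did so for 4 of 10 genes in embryonic stem cells, 4 in osteoblasts, 4 in MSC with bFGF and 1 without. The part of either cell type in the Mmp9 level was not tested.

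Among the membrane-bound MMPs, Mmp14 (MT1-MMP), the collagenase of the cell surface and activator of pro-MMP2, stood at 8.98 in MSC with bFGF, 9.20 in MSC without, 10.86 in osteoblasts and 10.01 in embryonic stem cells. Mmp16 (MT3-MMP) stood at 6.07, 5.86, 8.78 and 5.88. Both were highest in osteoblasts, and Mmp16 had signal there only. Mmp24 (MT5-MMP) lay near the floor, at 6.40, 6.57, 6.75 and 6.37. Mmp17 and Mmp25, which are anchored by a lipid, were under the floor in all arrays. Mmp23, a membrane-linked MMP without a hemopexin domain, stood at 5.33 in MSC with bFGF, 5.72 in MSC without, 7.10 in osteoblasts and 6.29 in embryonic stem cells.

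On chromosome 9, 10 Mmp genes lie next to each other, with no other protein-coding gene between them in RefSeq (assembly GRCm38.p6), in the order Mmp13, Mmp12, Mmp1b, Mmp3, Mmp1a, Mmp10, Mmp8, Mmp27, Mmp20 and Mmp7. Only 4 of these 10 neighbours lay above the floor in any array. The promoter windows of those 4 are shown because these neighbours had large differences between cultures in different directions. Each window runs from 250 bases before to 50 bases after the annotated start, is taken from RefSeq on the + strand, and is written 5′ to 3′ with the AP-1 motif TGANTCA in capitals. AP-1 is the Fos and Jun family of transcription factors, long known from the promoters of collagenase and stromelysin genes. Mmp13 lies at chr9:7272264-7272563, Mmp12 at chr9:7347124-7347423, Mmp3 at chr9:7445572-7445871 and Mmp10 at chr9:7502092-7502391.
Mmp13: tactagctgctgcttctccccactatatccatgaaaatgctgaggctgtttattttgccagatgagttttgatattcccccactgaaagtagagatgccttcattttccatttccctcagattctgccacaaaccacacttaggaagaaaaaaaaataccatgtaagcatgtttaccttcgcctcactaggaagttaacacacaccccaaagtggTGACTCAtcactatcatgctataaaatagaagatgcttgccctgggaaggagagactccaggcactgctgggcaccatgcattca
Mmp12: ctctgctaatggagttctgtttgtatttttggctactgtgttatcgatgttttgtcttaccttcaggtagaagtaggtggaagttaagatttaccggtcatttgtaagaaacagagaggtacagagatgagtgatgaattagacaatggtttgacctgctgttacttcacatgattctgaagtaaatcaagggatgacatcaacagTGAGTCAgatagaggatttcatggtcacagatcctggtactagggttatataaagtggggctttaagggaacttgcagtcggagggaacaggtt
Mmp3: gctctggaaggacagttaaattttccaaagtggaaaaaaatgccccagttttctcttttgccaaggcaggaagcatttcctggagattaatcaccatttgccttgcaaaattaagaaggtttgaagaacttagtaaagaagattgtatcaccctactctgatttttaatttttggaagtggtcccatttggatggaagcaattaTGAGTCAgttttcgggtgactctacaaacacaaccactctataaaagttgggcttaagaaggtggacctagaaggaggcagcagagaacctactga
Mmp10: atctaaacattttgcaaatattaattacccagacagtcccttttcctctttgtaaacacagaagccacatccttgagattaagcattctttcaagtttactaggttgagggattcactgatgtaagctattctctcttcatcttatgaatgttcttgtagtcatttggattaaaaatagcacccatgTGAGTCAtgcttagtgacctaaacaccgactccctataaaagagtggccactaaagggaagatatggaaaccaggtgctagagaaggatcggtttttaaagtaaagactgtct

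The motif began 35 bases before the start in Mmp13, 44 in Mmp12, 46 in Mmp3 and 63 in Mmp10. Mmp12 has 2 annotated starts, and the window of the other, at chr9:7344147-7344446, held no match. Over both strands, on which this motif reads alike, 8 of the 10 clustered Mmp genes had a match in a window, the others being Mmp1a, Mmp1b, Mmp7 and Mmp20. None of the 7 Mmp genes outside the cluster with a window had one (0 of 7), and neither did Mmp8 and Mmp27. Of 35 Adam, Adamts, Adamtsl and Timp genes with a window 5 had a match, and of all 32851 windows of this length 7.81% did. A match describes the letters only.

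The 4 neighbours with signal differed in where they were high. Mmp13 (collagenase 3), the main interstitial collagenase of rodents and a product of osteoblasts and hypertrophic chondrocytes, stood at 6.10 in MSC with bFGF, 5.39 in MSC without, 9.50 in osteoblasts and 9.76 in embryonic stem cells. Mmp3 (stromelysin 1), which cuts proteoglycans and activates other MMPs, stood at 3.85, 4.15, 7.03 and 10.15. Mmp10 (stromelysin 2) stood at 5.27, 6.27, 6.36 and 8.79. Mmp13 was thus under the floor in both MSC cultures and high in both controls, while Mmp3 and Mmp10 were highest in embryonic stem cells. Mmp12, the elastase of macrophages, stood at 9.36 in MSC with bFGF, 6.76 in MSC without, 8.13 in osteoblasts and 8.19 in embryonic stem cells, and was the only one of the 40 genes with its highest level in MSC with bFGF.

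**Figure D3:**
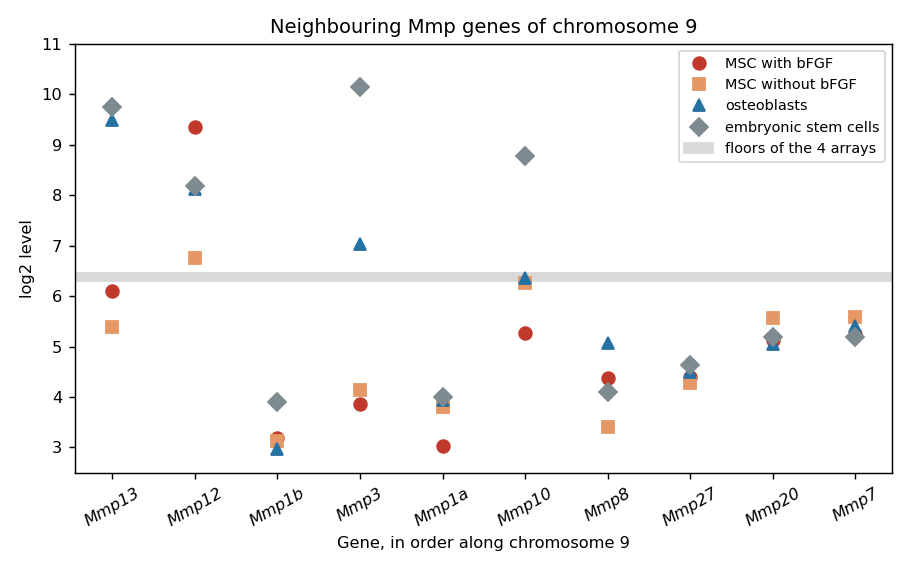
Log2 levels (vertical axis) of the 10 neighbouring Mmp genes of chromosome 9, placed in their order along the chromosome but not to distance, with 1 point per culture and the floors as a grey band. Mmp13, Mmp12, Mmp3 and Mmp10 lie above the band in at least 1 culture and the other 6 stay under it.

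Mmp11 and Mmp19 were the MMPs with higher levels in MSC than in either control. Mmp11 (stromelysin 3), which is activated by furin inside the cell and is known from tumour stroma, stood at 8.83 in MSC with bFGF, 8.96 in MSC without, 7.32 in osteoblasts and 7.51 in embryonic stem cells. Mmp19, a secreted MMP outside the classical groups, stood at 8.63, 9.24, 8.17 and 6.82. Mmp11 was the only one of the 83 genes 2-fold or more above each control in both MSC cultures. Among all 19938 genes 289 had this pattern, which is a similar share.

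The ADAM sheddases of broad expression were above the floor in every culture. Adam10, the main sheddase of Notch and amyloid precursor protein, stood at 9.38 in MSC with bFGF, 9.17 in MSC without, 9.96 in osteoblasts and 8.84 in embryonic stem cells. Adam17 (TACE), which releases tumour necrosis factor and ligands of the epidermal growth factor receptor, stood at 9.65, 9.35, 10.17 and 8.80. Adam9 stood at 10.13, 10.11, 10.80 and 9.49. These 3 sheddases were highest in osteoblasts, lowest in embryonic stem cells and differed between the MSC cultures by 0.31 or less. Adam15, a sheddase that also binds integrins, stood at 9.26, 8.54, 9.92 and 8.51, which made it 0.72 higher in MSC with than without bFGF.

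Adam8 had the widest swing of the Adam genes. This leukocyte sheddase stood at 9.49 in MSC with bFGF, 6.48 in MSC without, 10.73 in osteoblasts and 7.94 in embryonic stem cells. Its order over the cultures was that of the median level of the macrophage markers, whereas Mmp12 had another order, with MSC with bFGF above both controls. Of the other Adam genes 3 were low in MSC and higher in the controls or in one of them. Adam12 (meltrin alpha), of muscle and bone precursors, stood at 5.30, 5.37, 7.38 and 6.55 in MSC with bFGF, MSC without, osteoblasts and embryonic stem cells. Adam23, a member without protease activity, stood at 4.68, 5.39, 8.34 and 7.63, and Adam19 (meltrin beta) at 7.11, 7.04, 8.02 and 8.60. Adam12 and Adam23 had no signal above the floor in MSC. Adam33 and the inactive Adam11 lay close to the floor, between 6.35 and 6.84 in all arrays.

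Of 7 ADAMTS genes for enzymes that cut aggrecan or versican, 4 lay above the floor in at least 1 array, and 3 of these were highest in osteoblasts. Adamts5, the main aggrecanase of mouse cartilage, stood at 7.01 in MSC with bFGF, 7.12 in MSC without, 10.26 in osteoblasts and 5.32 in embryonic stem cells. Adamts1, which cuts versican and aggrecan, stood at 8.47, 8.34, 9.40 and 6.71. Adamts4, the other main aggrecanase, stood at 6.15, 6.43, 7.21 and 6.91. The osteoblast level of Adamts4 was 0.30 above that of embryonic stem cells. Adamts9, a versicanase, ran the other way, at 6.82, 6.66, 7.28 and 8.49, and its 6 probe sets were all higher in embryonic stem cells than in either MSC culture.

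The procollagen-trimming enzyme gene Adamts14 was highest in MSC. It stood at 8.09 in MSC with bFGF, 8.93 in MSC without, 7.20 in osteoblasts and 6.71 in embryonic stem cells. Adamts3, of the same group, stayed near the floor at 6.58, 6.07, 6.51 and 6.94. Its 16 probe sets did not share a direction between the MSC cultures, with 10 above 0 and 6 below. Adamts12, which cuts cartilage oligomeric matrix protein, stood at 5.65 in MSC with bFGF, 5.82 in MSC without, 7.78 in osteoblasts and 6.42 in embryonic stem cells, above the floor in osteoblasts only. Adamts10, a partner of fibrillin, stood at 6.64, 6.71, 7.59 and 7.84 in MSC with bFGF, MSC without, osteoblasts and embryonic stem cells. Adamts7 and Adamts17 ranged over 0.41 and 0.60 across the arrays, and Adamts6 lay above the floor in the MSC cultures only, at 6.65 and 6.75 with and without bFGF.

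Of the ADAMTS-like genes 2 had signal in osteoblasts alone. Adamtsl3 stood at 4.53 in MSC with bFGF, 4.55 in MSC without, 8.08 in osteoblasts and 4.38 in embryonic stem cells. Adamtsl1 (punctin), a secreted matrix protein, stood at 5.53, 5.70, 7.91 and 5.53 in that order of cultures. Both of its probe sets were 2-fold or more lower in each MSC culture than in osteoblasts. Adamtsl4, which binds fibrillin, stood at 6.35, 6.87, 7.64 and 6.61 in MSC with bFGF, MSC without, osteoblasts and embryonic stem cells, and Adamtsl5 at 7.14, 7.45, 7.39 and 7.10.

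The effect of bFGF on MSC was the stated question of the series, and few genes of these families differed at 2-fold. Adam8 was higher in MSC with bFGF than without by 3.01 (8.07-fold) and Mmp12 by 2.60 (6.08-fold), while Timp3 differed by -1.29 (2.45-fold lower with bFGF). These were the 2 genes higher and the 1 gene lower of 29 above the floor, or 6.90% and 3.45%, against 4.09% higher and 0.467% lower among all 10483 genes above the floor. Among those genes Adam8 had the 31st largest and Mmp12 the 76th largest difference, and Timp3 the 8th lowest. Adam8 and Mmp12 stood only 0.18 and 0.46 above the floor in MSC without bFGF, and background therefore bears on how large these values are. Macrophage markers were higher as well, with 17 of 20 genes 2-fold or more higher with bFGF, 0 lower and a median difference of 2.80. Of these markers Adgre1, Ptprc and Csf1r stood at 7.71, 9.40 and 10.56 with bFGF and at 5.69, 6.08 and 7.31 without. Mrc1, Cd163 and Aif1 were under the floor in both. The part of macrophages in the Adam8 and Mmp12 differences was not tested, and more cells of a type cannot be told apart from more RNA per cell in such bulk samples.

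Below 2-fold the differences ran both ways. Of the 29 genes 18 were below 0, or 62.1%, against 50.6% of all genes, with a median of -0.11 against 0.00. Over all 83 genes, with no floor, the median was -0.08, against -0.06 for all genes. Adamts14 differed by -0.84, Mmp19 by -0.60, Mmp2 by -0.55 and Adamtsl4 by -0.52, and Adam15 and Adamts3 were higher by 0.72 and 0.51. All of these but Adam15 lay within the limits of the receptor genes, -0.97 to 0.67, which do not measure the spread of genes well above the floor. Among the 10483 genes above the floor Adamts14 had the 105th lowest difference, Mmp19 the 333rd, Mmp2 the 411th and Adamtsl4 the 492nd. Adam15 had the 602nd largest and Adamts3 the 921st. The SD between probe sets of a gene was 0.14 in this comparison. The other inhibitors and the membrane activator lay near 0, with 0.05 for Timp1, -0.17 for Timp2 and -0.22 for Mmp14. Mmp13 was 0.71 higher with bFGF and Mmp10 differed by -0.99, both from levels under the floor in the 2 MSC arrays. By family the medians were -0.19 for 6 Mmp, 0.14 for 8 Adam, -0.10 for 10 Adamts, -0.41 for 2 Adamtsl and -0.17 for 3 Timp genes. For stromal and fibroblast markers the median was -0.20, with 2 of 16 higher at 2-fold and 3 lower.

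**Figure D4:**
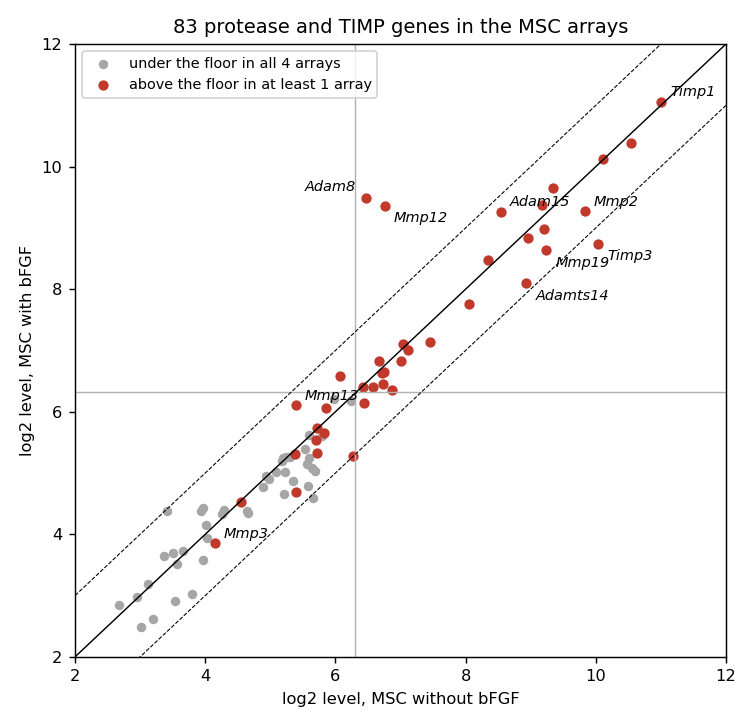
Log2 levels of the 83 genes in MSC with bFGF (vertical axis) and MSC without bFGF (horizontal axis), 1 array each, with the line of equal levels, dashed lines at 2-fold and grey lines at the floors. Adam8 and Mmp12 lie above the upper dashed line and Timp3 under the lower one.

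Compared with osteoblasts, MSC had lower levels of many of these genes. In MSC with bFGF 17 of 38 genes above the floor were 2-fold or more lower and 2 were higher, or 44.7% and 5.26%, against 9.71% lower and 7.5% higher among all genes. In MSC without bFGF 17 of 38 were lower and 3 higher, or 44.7% and 7.89%, against 13.3% lower and 8.17% higher. The medians over these 38 genes were -0.92 and -0.85 with and without bFGF, against 0.09 for all genes above the floor in each comparison. Some of the 38 passed the floor only through their osteoblast level, which favours negative values. Over all 83 genes, with no floor, the medians were -0.27 and -0.14, against -0.07 and 0.03 for all genes. The comparisons share the osteoblast array, so they are not independent of each other.

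Lower in both MSC cultures were 14 of the 38 genes above the floor in both comparisons, or 36.8%, against 8.65% of all genes. With and without bFGF the differences were -3.39 and -4.11 for Mmp13, -2.78 and -2.22 for Mmp2, -1.87 and -1.65 for Mmp14 and -2.71 and -2.92 for Mmp16. Mmp3 differed by -3.18 and -2.89, and Mmp23 by -1.77 and -1.38. Adamts5 differed by -3.26 and -3.15, Adamts12 by -2.13 and -1.96, Adamtsl1 by -2.38 and -2.21 and Adamtsl3 by -3.55 and -3.53. Of the Adam genes Adam23 differed by -3.66 and -2.95 and Adam12 by -2.08 and -2.01. Of the inhibitors Timp2 differed by -1.49 and -1.32. Of these 14 genes 9, including Mmp13, Mmp3, Mmp16 and Adamtsl3, did not reach the floor in either MSC culture, so background bears on their values. Stromal and fibroblast markers were lower as well, by medians of -2.00 and -2.10 with and without bFGF, with 11 and 9 of 16 genes lower at 2-fold and 0 higher. The part of these cells in the protease differences was not tested.

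A few genes differed by MSC culture. Adam8 differed from osteoblasts by -1.24 in MSC with bFGF and by -4.25 in MSC without. Timp3 differed by -1.73 in MSC with bFGF and by -0.44 in MSC without, and Adam15 by -0.65 and -1.37. Lower at 2-fold with bFGF only were Timp3, Adamts4 (-1.06) and Adamtsl4 (-1.29), and without bFGF only Adam15, Adamts1 (-1.06) and Mmp12 (-1.37). Adamts1 differed by -0.93 with bFGF, and passed 2-fold there too after centring, a loess curve or repeated quantile normalization. Mmp11 was higher than in osteoblasts by 1.51 and 1.64 with and without bFGF. Mmp12 was 1.23 higher with bFGF, and Adamts14 and Mmp19 were 1.74 and 1.06 higher without, although Mmp19 no longer passed 2-fold after centring, a loess curve or repeated quantile normalization. Macrophage markers lay at -1.26 with bFGF and -4.02 without in these comparisons, with 12 and 19 of 20 lower at 2-fold, and their part in the Adam8 and Mmp12 values was not tested.

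**Figure D5:**
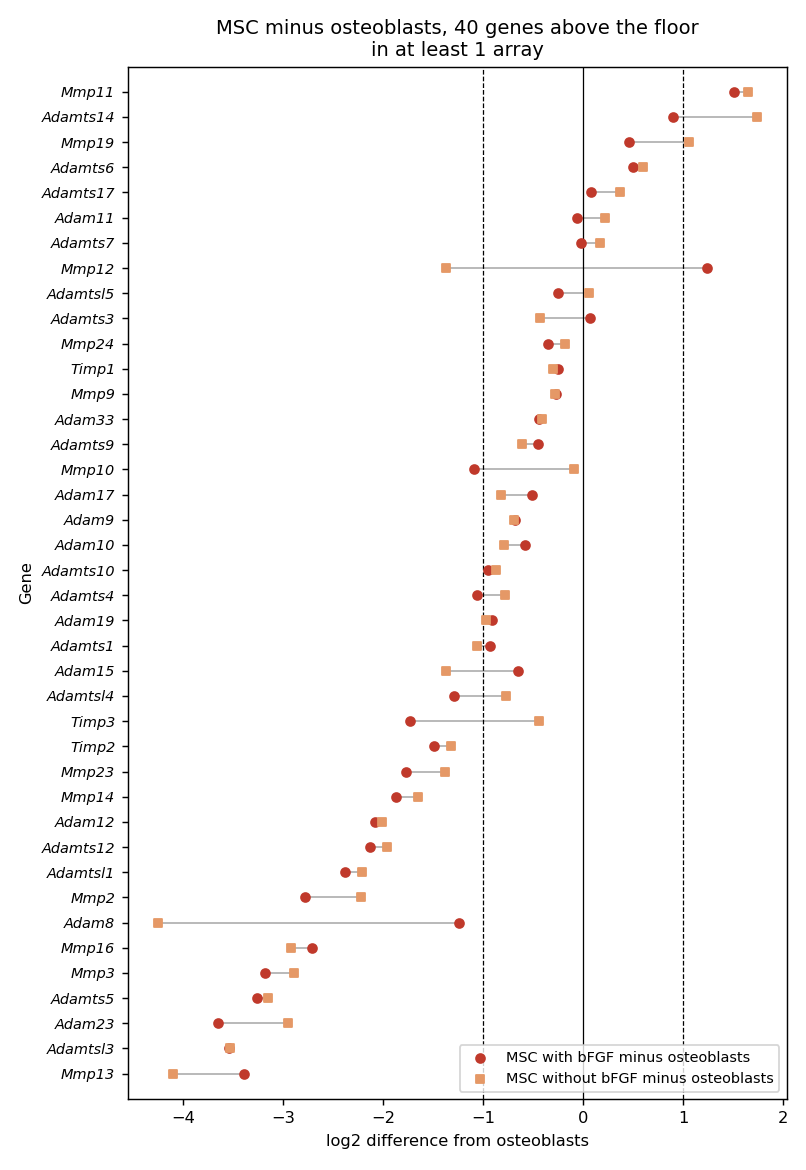
Log2 difference from osteoblasts (horizontal axis) for the 40 genes above the floor in at least 1 array, with a red circle for MSC with bFGF, an orange square for MSC without, and dashed lines at 2-fold. Mmp11 is the only gene right of the upper dashed line in both MSC cultures, and Mmp12 lies on opposite sides of 0 in them.

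Compared with embryonic stem cells, MSC differed in both directions. In MSC with bFGF 7 of 35 genes above the floor were 2-fold or more higher and 10 lower, or 20% and 28.6%, against 11.3% higher and 10.6% lower among all genes. In MSC without bFGF 5 of 35 were higher and 11 lower, or 14.3% and 31.4%, against 10.4% higher and 11.8% lower. The medians over these 35 genes were -0.12 and 0.03 with and without bFGF, against 0.12 and 0.10 for all genes above the floor. Over all 83 genes, with no floor, they were -0.05 and 0.04, against 0.01 and 0.08 for all genes. Centring out the shift of 0.12 left 7 higher and 10 lower in MSC with bFGF.

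Lower in both MSC cultures were 9 of the 35 genes above the floor in both comparisons, or 25.7%, against 9.28% of all genes. The comparisons share the embryonic stem cell array. With and without bFGF the differences were -6.29 and -6.00 for Mmp3, -3.65 and -4.36 for Mmp13, -3.51 and -2.52 for Mmp10 and -3.22 and -3.23 for Mmp9. Adam23 differed by -2.95 and -2.24, Adamts9 by -1.66 and -1.82, Adam19 by -1.49 and -1.56, Adam12 by -1.25 and -1.18 and Adamts10 by -1.20 and -1.12. Over the 6 probe sets of Adamts9 the differences ran from -3.74 to -1.66 with bFGF and from -3.57 to -1.82 without. The 4 MMPs, Adam12 and Adam23 did not reach the floor in MSC, so their differences are set by the embryonic stem cell level and by background. Mmp14 differed by -1.02 with bFGF and by -0.81 without. Fibroblast markers of feeder layers were lower in the same comparisons by medians of -2.58 and -2.24, with 7 and 5 of 8 genes lower at 2-fold, and in the embryonic stem cell array Acta2 stood at 11.91 and Col1a1 at 10.92. Their part in the protease levels of that array was not tested.

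Higher than in embryonic stem cells in both MSC cultures were 5 of 35 genes, or 14.3%, against 7.54% of all genes. With and without bFGF the differences were 1.81 and 2.41 for Mmp19, 1.38 and 2.22 for Adamts14, 1.76 and 1.63 for Adamts1, 1.69 and 1.80 for Adamts5 and 1.32 and 1.46 for Mmp11. Adam8 was 1.55 higher with bFGF and differed by -1.46 without, and Mmp12 was 1.17 higher with bFGF and differed by -1.43 without. With a loess curve removed Mmp12 no longer passed 2-fold in MSC with bFGF. Adam12, Adam23, Mmp3 and Mmp13 were lower than each control in both MSC cultures at 2-fold. This pattern was held by 4 of the 83 genes and by 288 of all 19938 genes.

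Between the controls, osteoblasts had the higher levels of most of these genes. Of 39 genes above the floor 15 were 2-fold or more higher in osteoblasts and 4 were lower, or 38.5% and 10.3%, against 12.3% higher and 8.83% lower among all genes, with a median of 0.71 against 0.03. Over all 83 genes, with no floor, the median was 0.22, against 0.07 for all genes. Adamts5 was 4.95 higher in osteoblasts, Adamtsl3 3.70, Mmp2 2.92, Mmp16 2.89, Adam8 2.79, Adamts1 2.69 and Adamtsl1 2.37. The sheddases Adam15, Adam17, Adam9 and Adam10 were higher by 1.41, 1.37, 1.32 and 1.12, and Timp2, Adamts12, Mmp19 and Adamtsl4 by 1.36, 1.36, 1.35 and 1.03. The 4 genes lower in osteoblasts were Mmp3 (-3.11), Mmp9 (-2.95), Mmp10 (-2.42) and Adamts9 (-1.21). Over the 6 probe sets of Adamts9 this difference ran from -2.84 to -1.21. Mmp12, Mmp13 and Adam33 differed by -0.06, -0.26 and 0.04. Macrophage markers were higher in osteoblasts by a median of 3.43, with 19 of 20 at 2-fold, and stromal and fibroblast markers by 1.25, with 8 of 16 at 2-fold. Their part in these differences was not tested.

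Genes that activate, inhibit or localise these proteases were read from a list of which 26 of 29 were measured. Between MSC with and without bFGF 1 of 18 genes above the floor was higher and 1 lower at 2-fold. Among all genes 4.09% were higher and 0.467% lower. Plau, the urokinase that makes plasmin and so helps to activate pro-MMPs, stood at 10.59 in MSC with bFGF and 7.88 in MSC without, with osteoblasts at 10.46 and embryonic stem cells at 9.16. The proteoglycan gene Spock3 (testican 3) differed by -1.05. Against osteoblasts 1 of 19 genes above the floor was higher and 6 lower in MSC with bFGF. In MSC without bFGF 2 of 21 were higher and 8 lower. Among all genes 7.5% and 8.17% were higher and 9.71% and 13.3% lower in these comparisons. The medians over the 26 genes were -0.51 and -0.64 with and without bFGF. The urokinase receptor Plaur was higher by 1.65 and 1.13, and the matricellular protein Thbs1 differed by -3.24 and -3.15. Pcolce2, an enhancer of procollagen C-proteinase, differed by -1.75 and -2.21, and the tissue plasminogen activator Plat by -2.19 and -2.10. Against embryonic stem cells 2 of 21 and 2 of 23 genes above the floor were higher in MSC with and without bFGF, and 5 and 6 were lower. Among all genes 11.3% and 10.4% were higher and 10.6% and 11.8% lower. Pcolce2 differed by -3.00 and -3.46 and Tspan15, a partner of ADAM10, by -2.97 and -2.83. Pcolce2, Plat and Tspan15 did not reach the floor in either MSC culture, so background bears on their values.

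Astacin, cathepsin and other matrix proteases, with 25 of 25 measured, gave a related picture. The macrophage-associated cathepsins Ctss and Ctsc were higher in MSC with bFGF than without by 2.63 and 1.89. These were 2 of 12 genes above the floor, and 0 were lower at 2-fold. Among all genes 4.09% were higher and 0.467% lower. Against osteoblasts 0 of 16 genes above the floor were higher in either MSC culture, and 7 and 9 were lower with and without bFGF. Among all genes 7.5% and 8.17% were higher and 9.71% and 13.3% lower. Cathepsin K (Ctsk), the collagen-cutting cathepsin of osteoclasts, differed by -4.56 and -4.06. The tolloid-like protease Tll1 differed by -3.32 and -2.73 and the serine protease Htra1 by -3.16 and -3.77. Ctsk, Tll1 and Htra1 did not reach the floor in either MSC culture, so background bears on their values. Ctsc and Ctss, above the floor in both MSC cultures, differed by -2.46 and -4.35 and by -1.54 and -4.17. Against embryonic stem cells 6 and 2 of 16 genes above the floor were higher and 5 and 6 lower in MSC with and without bFGF. Among all genes 11.3% and 10.4% were higher and 10.6% and 11.8% lower. Between the controls 10 of 17 genes above the floor were higher and 1 lower in osteoblasts, led by Ctss at 3.22. Among all genes 12.3% were higher and 8.83% lower.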

How the data were processed

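The deposited table held 1 log2 level per probe set for 4 arrays, made by the authors with Affymetrix Expression Console and RMA, per the submitters' processing notes. The log2 scale was read from the values, which ran from 1.40 to 14.28; tool versions and genome build: not given in the sources used here. RMA makes the array distributions alike, so a general shift in transcripts per cell would not show, and it compresses differences near the floor. Precision is limited by having so few arrays.

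Of 35556 probe sets 21789 had 1 symbol in the platform annotation, 1621 several and 12146 none. The 83 genes had 108 such probe sets, 4 genes having several; 2 probe sets shared by several symbols were not used. All 83 matched RefSeq by Entrez identifier, with 0 changed symbols. With 1 array per culture there was no test. The counting step was tested on simulated data. The alternatives were to average the probe sets of each gene, to use no floor or one at the 75th percentile, to centre each difference on its median over genes, to remove a loess curve (span 0.3) and to repeat quantile normalization. The genes named were those above the floor in at least 1 array, with the Timp genes, and of the other lists those at 2-fold or up to 3 each way; the levels of Adam22, under the floor in all arrays, were singled out after they were seen. Members and lists were chosen with earlier results of these data known. The tools were pandas 2.3.3, numpy 2.4.6, statsmodels 0.14.6 and matplotlib 3.10.9 in Python 3.11.15.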

Additional observations from a re-analysis of the deposited data

Results flagged for a closer look

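Adam8 and Mmp12 were set apart because they lay 2-fold or more above a control in MSC with bFGF and 2-fold or more below it in MSC without. For Adam8 the difference from embryonic stem cells was 1.55 with bFGF and -1.46 without. For Mmp12 it was 1.17 with bFGF and -1.43 without, and the difference from osteoblasts was 1.23 with bFGF and -1.37 without. Macrophage markers had median levels of 9.70 in MSC with bFGF, 6.70 in MSC without, 11.24 in osteoblasts and 7.44 in embryonic stem cells, and their part in these values was not tested. The difference between the MSC cultures was not tested, since each is 1 array, and the values share their control arrays.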

How the results depend on the processing

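Counts at 2-fold stayed within 1.5 times the reported value in 69 of 72 cases, over 6 alternatives, 6 comparisons and 2 directions. With no floor 2 genes instead of 1 were lower in MSC with bFGF than without, the added gene being Adam21, which was under the floor in all arrays. With the floor at the 75th percentile the MSC with bFGF had 10 instead of 17 genes lower than osteoblasts, without Adam12, Adamts12, Adamts4, Adamtsl1, Adamtsl4, Mmp23 and Mmp3, and 7 instead of 11 were lower in MSC without bFGF than in embryonic stem cells, without Adam12, Adam23, Adam8 and Adamts10. These genes dropped out because that floor tests fewer genes. Differences were also followed for the 4 Timp genes, Adam8 and 6 Mmp genes, which have 1 probe set each. Averaging probe sets or changing the floor therefore could not move these differences. Centring, a loess curve and repeated quantile normalization moved them by at most 0.12, 0.21 and 0.20. Shifts of that size could not change the sign of a difference at 2-fold. Levels under the floor limit the sizes of many differences.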

Other observations

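Known substrates of these proteases, of which 27 of 30 were measured, differed between cultures as well. Tnf, whose product ADAM17 releases, stood at 9.58 in MSC with bFGF and 7.14 in MSC without, with osteoblasts at 8.88 and embryonic stem cells at 6.23. Csf1r, the receptor of macrophage colony-stimulating factor and itself a macrophage marker, stood at 10.56, 7.31, 11.27 and 7.30 in the same order. Those were the 2 substrate genes above the 2-fold line in the bFGF comparison, of 22 above the floor. The 2 lower ones were the brain proteoglycan gene Bcan (-1.11) and the fibrillar collagen gene Col3a1 (-1.20). Among all genes 4.09% were higher and 0.467% lower. Against osteoblasts 0 of 22 and 1 of 24 substrate genes above the floor were higher in MSC with and without bFGF, and 11 and 12 were lower. Among all genes 7.5% and 8.17% were higher and 9.71% and 13.3% lower in these comparisons. Col3a1 differed by -4.21 and -3.01, Col1a1 by -3.54 and -3.37 and the basement membrane collagen gene Col4a1 by -3.17 and -2.69. Osteoblasts had 9 of 23 substrate genes above the floor higher and 1 lower than embryonic stem cells, against 12.3% and 8.83% of all genes. The lower one was the epithelial cadherin gene Cdh1 at -3.92.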
